A study of Mus musculus with 6 samples.

Results

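The genes described here build, move and divide chromosomes in mitosis. They are 45 named genes that cover mitotic entry kinases and cyclins, chromosome structure, centromeres and kinetochores, the spindle checkpoint, the spindle and its motors, anaphase and cytokinesis. Members were taken by name, from a list drawn up with earlier results of these data known. Only probe sets (groups of short probes against 1 transcript) that the platform annotation pairs with exactly 1 gene symbol were used. Each gene was represented by its probe set with the highest mean over the 6 samples. This gave 44 measured members among 12393 genes. The cyclin gene Ccnb1 had no probe set with a single symbol and was not analysed here.

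Expression was measured with 1 Affymetrix Mouse430a array per sample in regulatory T cells, taken as CD4+CD25+ cells from mice labelled C57BL6. The 3 control samples were wild type, and the labels name no Cre in them. The other 3 samples carried HDAC3-fl/fl_FOXP3cre, a floxed gene for the histone deacetylase Hdac3 with a Cre recombinase named for Foxp3, the lineage factor of regulatory T cells, and are called mutant here. A Cre under Foxp3 control acts in cells that have expressed Foxp3. No treatment is labelled, ages and pooling of animals are not given in the sources used here, and nothing in the labels says whether each sample was its own animal. The p-values therefore rest on the spread between these samples alone, and that spread may be technical. The comparison asks how the expression of these genes differs between the mutant and the wild type samples. How many cells in the mutant samples carry the deletion is not known here.

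Mitotic genes are transcribed in a wave that peaks late in the cell cycle and are low in resting cells. Cyclin-dependent kinase 1 with cyclins A and B drives entry, Aurora and Polo kinases shape the spindle, the checkpoint holds the anaphase-promoting complex (APC/C) until all chromosomes are attached, and the APC/C then marks cyclin B and securin for destruction. In T cells the same programme runs in clonal expansion, and regulatory T cells include a cycling fraction in the resting animal.

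On the log2 scale Hdac3 itself gave 9.07, 9.04 and 9.01 across the controls and 8.46, 8.51 and 8.50 across the mutants, a difference of -0.55 (SE 0.0503, limma adjusted p = 7.45e-05). The position of this probe set relative to the floxed part is not known here, so it is a weak check of the labels, and the source label of those samples says HDAC11 where title and genotype say HDAC3. Hdac11 stood at 5.47 in wild type and at 4.89 in the mutant samples, at least 1.24-fold lower as measured from the top of the background range defined next. Samples correlated at 0.996 to 0.997 within wild type, at 0.997 to 0.998 within mutant and at 0.915 to 0.918 between the groups. Signal between 2.37 and 5.16, the range of 27 bacterial control probe sets, is called background. Foxp3 lay inside it in both groups, at 3.77 and 3.68, while Il2ra, which encodes CD25, rose from 9.25 to 9.96. Of the other regulatory T cell markers Ikzf2 fell by 1.58 (limma adjusted p = 4.49e-05) and Tnfrsf18 by 0.86 (adjusted p = 7.94e-06), and Ctla4 differed by 0.07 (adjusted p = 0.401). So 1 of the 5 rose (20%) and 2 fell (40%), near the shares of all genes. At a limma adjusted p of 0.05, 22.4% of all genes were called higher and 38.8% lower, the shares to set beside each marker count here. All 9 measured T cell markers were lower in the mutant samples, with a median of -1.51 and a summed linear signal of 34300 to 36200 in wild type and 13300 to 13500 in mutant samples. All 14 macrophage markers were higher, with sums of 524 to 553 and of 88300 to 91100, and 8 of them, among them C1qb, Adgre1 and Mertk, were within background in wild type. All 10 measured markers of neutrophils and their precursors were higher, with sums of 291 to 399 and of 40300 to 41300, and 6 of them, among them S100a8 and Mpo, were within background in wild type. Of 9 erythroid markers 6 were higher (66.7%, beside 22.4% of all genes), with sums of 603 to 626 and of 2100 to 2150. Among the 6, Tfrc had the highest signal and rose from 8.66 to 10.71, and Epor rose from 6.12 to 7.89. Tfrc alone made up most of these sums in both groups, so they say little about the other erythroid markers. Hemgn, Slc4a1 and Alas2 were within background in wild type and at least 1.30-fold, 1.29-fold and 1.15-fold higher. Tal1, the last of the 6, lay in the background range in both groups, as did Klf1, Rhag and Epb42. Of 5 B cell markers Cd79b was higher, Blk was lower by 0.43 (limma adjusted p = 0.0343) and Cd79a differed by -0.26 (adjusted p = 0.0716). Ms4a1, Pax5 and Blk lay in the background range in both groups. The part of these cell type markers in the differences given next was not tested, and in bulk RNA a change in the number of cells of a type and a change in RNA per cell cannot be told apart. The difference in signal between the 3' and 5' ends of the Gapdh control was 0.20 to 0.51 in wild type and 0.48 to 0.52 in mutant samples (log2).

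Most mitosis genes were higher in the mutant samples. Of the 44 members 39 rose, 3 fell (Smc4, Cdc25b and Pttg1) and 2 did not pass the test (Bub3 and Cenpa), at a limma Benjamini-Hochberg adjusted p of 0.05 over all 12393 genes. Thus 88.6% of members rose, where 22.4% of all genes were called higher and 38.8% were called lower. At the further threshold of a 2-fold difference, which the submitters also used, 31 members (70.5%) were higher and 1 was lower, against 9.04% and 4.46% of all genes. The median difference, mutant minus wild type, was 1.47 on the log2 scale over the members and -0.17 over all genes, and among the 39 that rose the middle value was a 3.02-fold rise. The mean over the members was 6.99, 6.98 and 7.02 across the controls and 8.29, 8.37 and 8.27 across the mutants, so the groups lay far apart beside the spread within them. The groups did not overlap, with the mutant samples higher, in 39 members and in 24.3% of all genes, and with the mutant samples lower in 4 members and in 43.1% of all genes.

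**Figure D1:**
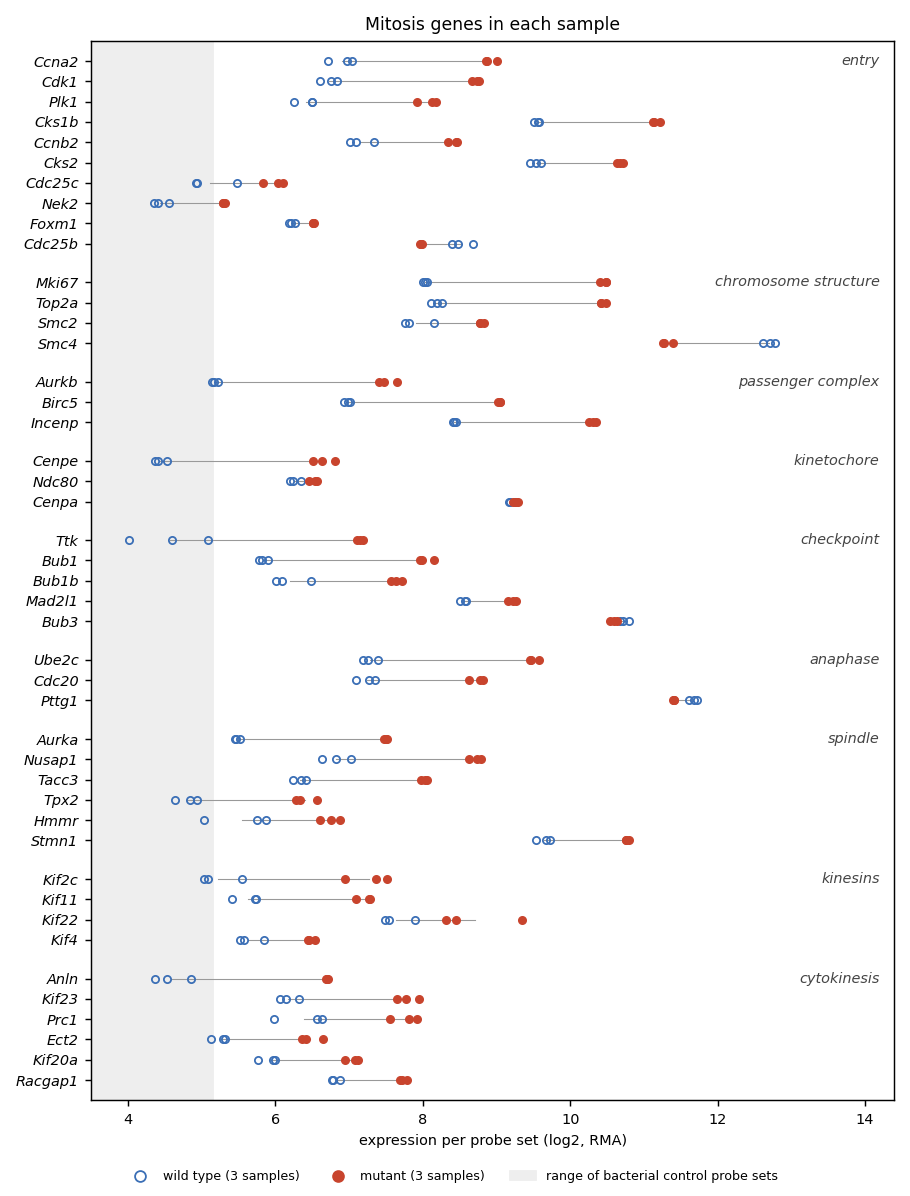
Expression of the 44 mitosis genes on the log2 RMA scale, grouped by role, with open blue points for the 3 wild type samples, filled red points for the 3 mutant samples and a grey line between the group means. The grey band is the background range of 2.37 to 5.16, into which the wild type means of 6 members fall. Red points lie to the right of all blue points in 39 rows and to the left in Smc4, Cdc25b, Pttg1 and Bub3.

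In wild type 38 of the 44 members lay above the background range, and in the mutant samples all 44 did. The 6 members whose wild type mean lay in the background range were Ttk, Anln, Cenpe, Tpx2, Cdc25c and Nek2, and their folds are given as lower bounds, measured from the top of that range at 5.16. With those bounds the median of the members was 1.41. Measured differences of the rising members ran from 0.26 in Ndc80 to 2.59 in Ttk. Rises of at least 4-fold, with both group means above background, were seen in 9 members. These were Mki67, Aurkb, Top2a, Ube2c, Bub1, Birc5, Kif2c, Aurka and Ccna2. Single wild type values of Kif2c (5.54, 5.09 and 5.04) and Aurkb (5.22, 5.16 and 5.15) lay on both sides of the top of that range. Another 8 of the 39 rose by less than 2-fold. Relative to 4 genes of the CD3 complex (Cd3e, Cd3d, Cd247 and Cd3g), whose mean fell by 1.47, 43 of the 44 members were higher, while 97.7% of all genes were called higher on that scale.

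Genes of this programme often carry a cell cycle genes homology region (CHR) near the start of transcription, with the letters TTTGAA or TTTAAA, and CCAAT boxes upstream of it. The promoters of members that rose and fell are shown here because most members moved together. RefSeq promoters (GRCm38.p6), each 250 bases before to 50 bases after a start, were matched for 35 members, which had 38 distinct promoters. Aurkb, Ccna2, Cdc25c, Foxm1, Incenp, Kif20a, Smc4, Stmn1 and Tpx2 were not matched. TTTGAA, on either strand, was found in 28 of the 38 (73.7%) and in 17.9% of all 32817 promoters, or 12.9% of those of genes on the array. It lay between positions -50 and 50 from the start, a window chosen after the matches were seen, in 25 of the 38 (65.8%) and in 4.95% of all promoters. TTTAAA was found in 7 of the 38 (18.4%) and in 13.2% of all promoters. CCAAT, on either strand, was found in 30 of the 38 (78.9%) and in 37.4% of all promoters, and CCAAT together with either CHR form in 26 of the 38 (68.4%) and in 10.7% of all promoters. These matches are letters in a window and not shown binding sites. The 25 members with TTTGAA had a median difference of 1.5 and the 10 without had 1.41. The medians with and without were 1.45 and 1.79 for TTTGAA near the start, 2.02 and 1.41 for TTTAAA, 1.59 and 1.0 for either CHR form, 1.45 and 1.79 for CCAAT, and 1.5 and 1.41 for a CHR form with CCAAT, with no test run on them.

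In the sequences that follow, 5′ to 3′ on the strand of the gene, capitals mark matches to these 3 motifs on either strand, so that TTTGAA can read as TTCAAA and CCAAT as ATTGG. Cdk1, Ccnb2, Top2a and Ube2c are members that rose, and Cdc25b and Pttg1 fell. They come from chr10:69352863-69353162 (minus strand), chr9:70421505-70421804 (minus), chr11:99024140-99024439 (minus), chr2:164769679-164769978 (plus), chr2:131186698-131186997 (plus) and chr11:43425932-43426231 (minus).
Cdk1: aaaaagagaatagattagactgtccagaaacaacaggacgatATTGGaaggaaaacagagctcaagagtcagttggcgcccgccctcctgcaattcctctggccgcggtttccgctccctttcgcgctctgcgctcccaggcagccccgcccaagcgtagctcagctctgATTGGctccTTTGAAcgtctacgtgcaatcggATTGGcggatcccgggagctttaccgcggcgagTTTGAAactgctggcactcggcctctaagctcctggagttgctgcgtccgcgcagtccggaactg
Ccnb2: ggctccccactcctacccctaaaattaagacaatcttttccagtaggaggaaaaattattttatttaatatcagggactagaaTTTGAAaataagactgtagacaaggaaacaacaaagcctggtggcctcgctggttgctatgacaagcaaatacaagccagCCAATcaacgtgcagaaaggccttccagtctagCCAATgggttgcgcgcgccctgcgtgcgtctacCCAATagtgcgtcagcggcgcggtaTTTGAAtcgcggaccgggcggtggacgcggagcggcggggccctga
Top2a: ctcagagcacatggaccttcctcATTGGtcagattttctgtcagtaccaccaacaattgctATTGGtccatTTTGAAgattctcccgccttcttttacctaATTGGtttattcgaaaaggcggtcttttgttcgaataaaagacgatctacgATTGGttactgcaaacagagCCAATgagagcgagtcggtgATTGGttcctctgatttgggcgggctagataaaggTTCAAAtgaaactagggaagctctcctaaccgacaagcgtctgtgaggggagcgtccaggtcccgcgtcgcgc
Ube2c: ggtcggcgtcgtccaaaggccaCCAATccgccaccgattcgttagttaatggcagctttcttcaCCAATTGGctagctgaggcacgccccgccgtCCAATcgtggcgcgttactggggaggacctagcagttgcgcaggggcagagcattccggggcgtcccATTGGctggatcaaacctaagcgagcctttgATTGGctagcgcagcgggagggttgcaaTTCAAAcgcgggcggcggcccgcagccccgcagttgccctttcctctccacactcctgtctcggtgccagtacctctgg
Cdc25b: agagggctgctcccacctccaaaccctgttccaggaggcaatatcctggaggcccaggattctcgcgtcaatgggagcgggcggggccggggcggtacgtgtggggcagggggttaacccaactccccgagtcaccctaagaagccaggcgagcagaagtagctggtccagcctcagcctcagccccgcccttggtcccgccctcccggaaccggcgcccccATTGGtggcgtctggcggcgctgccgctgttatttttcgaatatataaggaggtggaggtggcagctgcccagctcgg
Pttg1: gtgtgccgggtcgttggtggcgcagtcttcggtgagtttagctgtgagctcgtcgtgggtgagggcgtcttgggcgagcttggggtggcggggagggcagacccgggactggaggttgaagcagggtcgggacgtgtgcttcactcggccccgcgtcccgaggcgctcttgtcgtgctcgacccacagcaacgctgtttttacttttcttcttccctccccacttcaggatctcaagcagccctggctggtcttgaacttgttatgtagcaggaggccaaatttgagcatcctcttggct

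Counted from the start of transcription, a TTTGAA match began at position -15 in Cdk1, 5 in Ccnb2, -23 in Top2a and -29 in Ube2c. The nearest CCAAT match upstream of it began at -48 in Cdk1, -21 in Ccnb2, -58 in Top2a and -57 in Ube2c. The 3 CCAAT matches of Ccnb2 began 33 and 33 bases apart, and the closest pair of Cdk1 began 32 bases apart. Cdc25b had a CCAAT match at -28 and no CHR letters in this window, and Pttg1 had none of the letters searched. Only 4 members that were not called higher had a matched promoter, too few to compare letters by call. Of these, Bub3 and Cenpa, which did not pass the test, had both TTTGAA and CCAAT, while Cdc25b and Pttg1 had no CHR letters. Tacc3, Nusap1 and Mad2l1, which rose, had none of the motifs in this window.

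Entry into mitosis was represented by 10 measured genes, of which 9 rose and Cdc25b fell, with a median of 1.21. Cdk1, the kinase that starts mitosis, gave 6.75, 6.83 and 6.61 across the controls and 8.76, 8.66 and 8.73 across the mutants. All 3 mutant values lay above all wild type values, and the difference was 1.99 (SE 0.0727, 95% interval 1.81 to 2.16, limma adjusted p = 8.28e-07), a 3.97-fold rise. Its cyclin partners rose too, Ccna2 by 2.00 and Ccnb2 by 1.28. The 2 small CDK-binding proteins rose, Cks1b by 1.61 and Cks2 by 1.14. Polo-like kinase Plk1 rose by 1.66. The centrosome kinase gene Nek2 lay in the background range in all 3 wild type samples and was at least 1.10-fold higher, and Cdc25c, a phosphatase that activates CDK1, was at least 1.78-fold higher.

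Foxm1, the transcription factor that drives many genes of this wave, moved little. It gave 6.19, 6.26 and 6.21 across the controls and 6.51, 6.53 and 6.51 across the mutants. These values did not overlap, and the difference was 0.29 (SE 0.0508, limma adjusted p = 0.00203), which did not pass when the arrays were quantile normalized again (0.13, adjusted p = 0.0544). Of the other 3 Foxm1 probe sets 1 rose by 0.29, 1 was within background in wild type and at least 1.33-fold higher, and 1 lay in the background range in both groups.

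Cdc25b, the phosphatase of the same family that acts early in entry, went the other way from Cdc25c. It gave 8.39, 8.47 and 8.68 across the controls and 7.97, 7.98 and 7.99 across the mutants. The wild type samples were all higher, and the spread came from them alone, with an SD of 0.147 beside 0.00911. Cdc25b fell by 0.54 (SE 0.0807, limma adjusted p = 0.000995). Relative to the CD3 genes it stood at 0.93, below the 1.30 of the median gene on that scale. The Cdc25b promoter, printed above, held a CCAAT match and no CHR letters, and a link between letters and direction was not tested.

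Of the genes that shape chromosomes, Mki67, Top2a and Smc2 rose and Smc4 fell. Mki67 encodes the proliferation antigen Ki-67, which coats mitotic chromosomes. It gave 8.0, 8.06 and 8.03 across the controls and 10.48, 10.48 and 10.40 across the mutants, the second largest measured difference of the members at 2.42 (SE 0.0531, limma adjusted p = 7.61e-08), or 5.37-fold. Top2a, the topoisomerase that untangles sister chromatids, measured 8.19, 8.11 and 8.26 and then 10.42, 10.49 and 10.42, a difference of 2.26 (SE 0.0604, limma adjusted p = 1.77e-07). Both sets of values were tight beside the gap between the groups.

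Smc2 and Smc4 encode the paired core ATPases of condensin, the ring complex that compacts chromosomes, and they differed in direction. Smc2 rose by 0.89 (SE 0.106, limma adjusted p = 0.0003). Smc4 gave 12.71, 12.78 and 12.62 across the controls and 11.26, 11.40 and 11.27 across the mutants, and fell by 1.39 (SE 0.0682, limma adjusted p = 3.34e-06), the only member lower by at least 2-fold. Its other 2 probe sets fell by 1.48 and 1.53, so all 3 sets gave the same direction. Relative to the CD3 genes, which fell by 1.47, Smc4 differed by 0.08 (adjusted p = 0.323).

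The chromosomal passenger complex corrects wrong attachments and later directs cytokinesis, and all 3 of its members rose. Birc5, which encodes survivin, gave 6.93, 7.01 and 6.98 across the controls and 9.04, 9.05 and 9.02 across the mutants, a difference of 2.07 (SE 0.0511, limma adjusted p = 1.25e-07). Aurkb, the kinase of the complex, rose by 2.33 from a wild type mean of 5.17, just above background, and its second probe set, within background in wild type, was at least 2.36-fold higher. Incenp, the scaffold, rose by 1.88. With a median of 2.07 the complex had the largest median of the 9 role groups on the deposited scale.

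The 3 kinetochore and centromere members behaved unequally. Cenpe, a motor that carries chromosomes to the spindle equator, was at least 2.81-fold higher, from 4.36, 4.52 and 4.41 in wild type to 6.51, 6.81 and 6.63. Ndc80, which binds microtubules, differed by 0.26 (limma adjusted p = 0.0108), and this did not pass with median centring (0.10, adjusted p = 0.177) or quantile normalization again (0.10, adjusted p = 0.193). Cenpa, the histone variant that marks centromeres, had the smallest difference of all members. It gave 9.18, 9.17 and 9.25 across the controls and 9.26, 9.29 and 9.22 across the mutants. These values overlapped, and the difference of 0.05 had a 95% interval of -0.07 to 0.18 (limma adjusted p = 0.405), with -0.11 under median centring and 0.24 (adjusted p = 0.00449) with cyclic loess.

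In the spindle checkpoint 4 of 5 members rose. Ttk, the kinase at the top of the checkpoint, also called MPS1, gave 4.01, 4.59 and 5.08 across the controls and 7.19, 7.15 and 7.11 across the mutants. The wild type values were spread within background and the mutant values were tight, so its measured difference of 2.59 is given as at least 3.99-fold (limma adjusted p = 8.51e-05). The checkpoint kinase gene Bub1 rose by 2.20 and Bub1b, which encodes BUBR1, by 1.45. Mad2l1, the inhibitor of Cdc20, rose by 0.66. Bub3, the shared partner that brings BUB1 and BUBR1 to kinetochores, stood at 10.73 and 10.59 and differed by -0.14 (limma adjusted p = 0.0706), without overlap of its 6 values. Its direction turned with cyclic loess (0.07, adjusted p = 0.346), and its value was -0.30 (adjusted p = 0.00288) with median centring. A second Bub3 probe set above background was lower by 0.56 and did pass.

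At the step into anaphase 2 of 3 members rose and 1 fell. Ube2c, the ubiquitin-conjugating enzyme of the APC/C, rose by 2.22 and Cdc20, its activator in mitosis, by 1.5. Pttg1, which encodes securin, the inhibitor of the protease that cuts cohesin, gave 11.72, 11.61 and 11.68 across the controls and 11.41, 11.40 and 11.41 across the mutants. The groups did not overlap and it fell by 0.26 (SE 0.0535, limma adjusted p = 0.00448), but this small difference lay near that of the median gene (-0.17), did not pass with cyclic loess (-0.05, adjusted p = 0.545) and was 1.2 relative to the CD3 genes. Its other 2 probe sets differed by -0.18 (adjusted p = 0.104 over all probe sets) and -0.62 (adjusted p = 0.000662).

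All 6 spindle genes rose, with a median of 1.64. Aurka, the Aurora kinase of the spindle poles, gave 5.46, 5.45 and 5.52 across the controls and 7.51, 7.50 and 7.47 across the mutants, a difference of 2.02 (SE 0.0515, limma adjusted p = 1.45e-07). Tpx2, which activates Aurora A on the spindle, was at least 2.36-fold higher, and Tacc3, its substrate, rose by 1.69. Nusap1, a microtubule bundling protein, rose by 1.89. Hmmr rose by 1.2 with the widest wild type spread of the group (SD 0.453), and of its other 3 probe sets 1 rose and 2 did not pass. Stmn1, a microtubule destabiliser that non-dividing cells also express, rose by 1.13.

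All 4 kinesins that move the spindle or chromosomes rose. Kif11, the motor that pushes spindle poles apart, rose by 1.59, and the chromokinesin Kif4 by 0.84. Kif2c, a microtubule depolymerase, rose by 2.05, and its other probe sets were split, with 1 at least 2.17-fold higher from background, 1 at -0.15 (adjusted p = 0.117) and 1 in the background range. Kif22, a chromokinesin whose values are printed because 1 sample stood out, gave 7.89, 7.49 and 7.54 across the controls and 8.31, 9.35 and 8.44 across the mutants. Its difference of 1.06 (SE 0.273, limma adjusted p = 0.0127) became 0.74 without mutant replicate 2, and it did not pass by the methods' t-test run on the same values (adjusted p = 0.0676). The other 2 Kif22 probe sets rose by 1.2 and 1.70.

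All 6 cytokinesis genes rose, with a median of 1.30. Anln, which organises the cleavage furrow, was at least 2.91-fold higher. The central spindle genes Kif23 and Racgap1, whose products form the centralspindlin complex, rose by 1.61 and 0.92. Prc1, which bundles the midzone microtubules, rose by 1.37, the motor gene Kif20a by 1.14, and Ect2, which activates RhoA at the furrow, by 1.23.

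Where a member had further probe sets, they mostly went the same way. There were 39 further probe sets for 23 members, and 9 of them lay in the background range in both groups. Of the 30 above background in at least 1 group, 21 were higher, 4 were lower and 5 did not pass, by the adjusted p over all probe sets with 1 symbol. The shares of all probe sets called in that fit were not counted. Over genes, with 1 set each, 22.4% were called higher and 38.8% lower. Some of the 30 were above background in the mutant samples only, which favours calls of higher. The 4 lower sets belonged to Smc4, Bub3 and Pttg1.

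Other mitosis genes rose less uniformly than the members. A list of 118 further genes of mitosis was drawn up by function, with earlier results of these data known. It had 85 measured genes, of which 46 rose, 31 fell and 8 did not pass, with a median of 0.28. Thus 54.1% rose, beside 22.4% of all genes, and 36.5% fell, close to the 38.8% of all genes that did. With cyclic loess, where 29.9% of all genes were called higher, 49 rose and 18 fell. Relative to the CD3 genes, a scale that adds 1.47 to every gene alike and on which 97.7% of all genes were called higher, 84 rose and none fell. Of 17 spindle, motor and centrosome genes 13 rose (76.5%) and 4 fell (23.5%), beside 22.4% and 38.8% of all genes. Spag5 and Aspm, which act at spindle poles, were at least 2.81-fold and 3.55-fold higher, Cep55 of the midbody rose by 1.91, and Tacc2 fell by 1.25, or differed by 0.21 relative to the CD3 genes (adjusted p = 0.0744). Of 16 entry kinases, phosphatases and transcription regulators 10 rose (62.5%) and 5 fell (31.25%), beside the same shares of all genes. Of these 16 genes 2, a rise and a fall, lay in the background range in both groups. Cdca3, Pbk and Ccnf were up by 1.77, 1.44 and 1.37, and Ensa was down by 0.75, a change that was 0.71 relative to the CD3 genes.

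**Figure D2:**
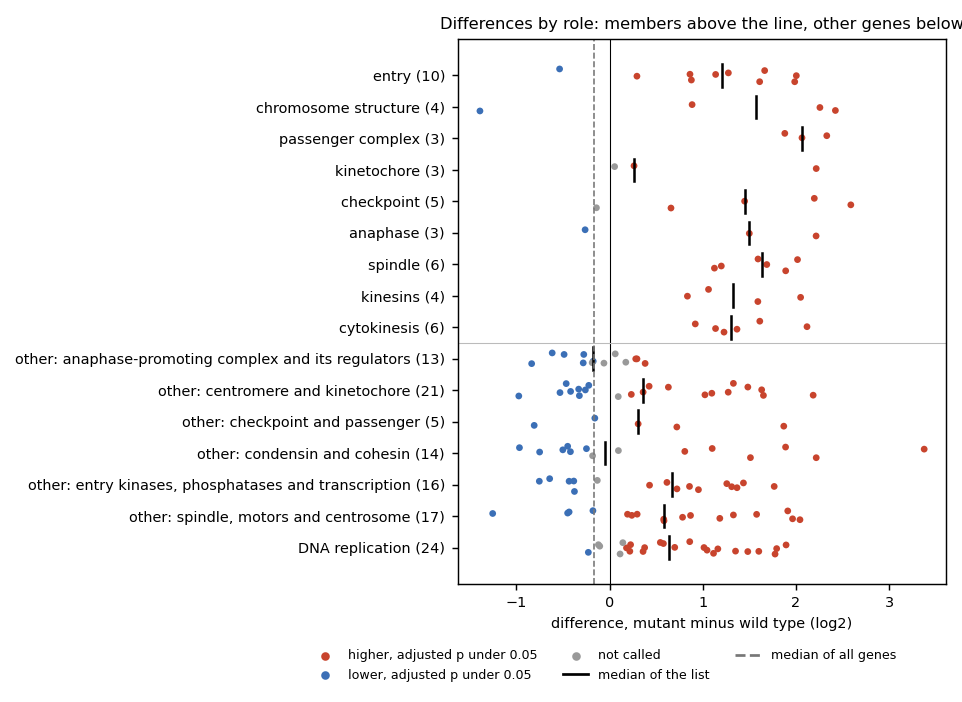
Differences (mutant minus wild type, log2) of members by role above the grey line, and of other mitosis genes and DNA replication genes below it, 1 point per gene with the number of genes in brackets. Red points were called higher, blue lower and grey not called at adjusted p 0.05, the black bars are list medians and the dashed line is the median of all genes at -0.17. Apart from Smc4, Cdc25b, Pttg1, Bub3 and Cenpa the members lie to the right of 0.2, while other APC/C, condensin and cohesin genes fall on both sides of 0.

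Of the 14 further condensin, cohesin and regulator genes that were measured 6 rose (42.9%, beside 22.4% of all genes) and 6 fell (42.9%, near the 38.8% of all genes). Ncapg2, a condensin II subunit, rose by 3.38 (SE 0.129, limma adjusted p = 1.02e-06), above the difference of any member. Ncapg of condensin I rose by 1.89, and its condensin I partners Ncaph and Ncapd2, named after their values were seen, rose by 1.51 and 1.10, as did the core member Smc2 by 0.89, while the other core member Smc4 fell. Ncaph2, also named afterwards, differed by -0.18 (limma adjusted p = 0.0538). Cdca5, which encodes sororin and holds sister chromatids together, rose by 2.22. Of cohesin, which also works outside mitosis, Stag2 fell by 0.97, Stag1 by 0.50 and the loader gene Nipbl by 0.75 on the deposited scale. Relative to the CD3 genes they stood at 0.50, 0.97 and 0.72, all below the 1.30 of the median gene on that scale.

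**Figure D3:**
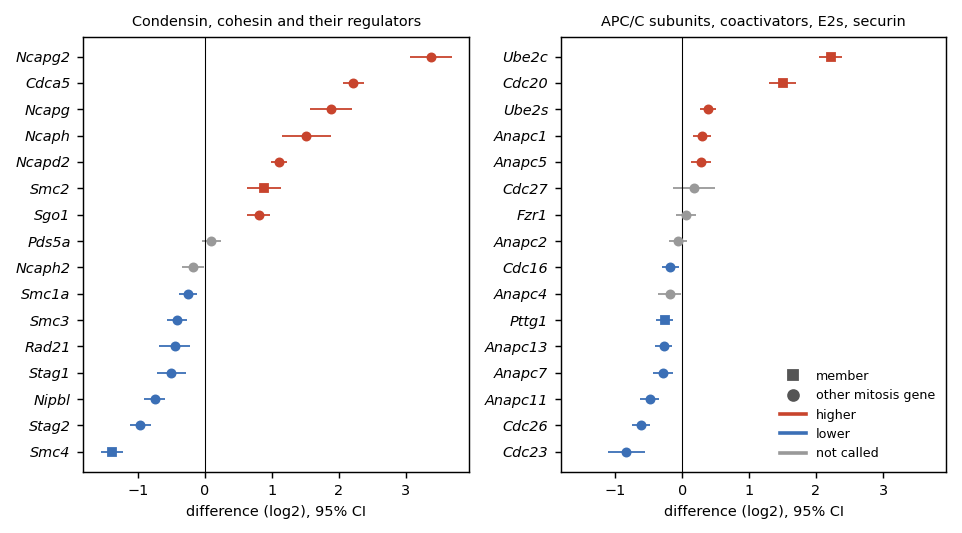
Differences (mutant minus wild type, log2) with 95% confidence intervals for condensin, cohesin and their regulators on the left and for the APC/C, its coactivators, its E2 enzymes and securin on the right, with squares for members and circles for other mitosis genes. Red was called higher, blue lower and grey not called at adjusted p 0.05. Smc2 at 0.89 lies with the other raised condensin genes and Smc4 at -1.39 lies at the foot, and Ube2c at 2.22 and Cdc20 at 1.5 stand apart from the APC/C subunits between -0.84 and 0.29.

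The 13 further genes of the APC/C and its regulators moved about as all genes did. Of them 3 rose (23.1%, beside 22.4% of all genes), 6 fell (46.2%, beside 38.8%) and 4 did not pass, with a median of -0.18, close to the -0.17 of all genes. Cdc23 and Cdc26, core subunits, fell by 0.84 and 0.62, and Anapc1 and Anapc5 rose by 0.29 and 0.28. The last 2 rises did not pass with median centring (adjusted p = 0.0759 and 0.138). Relative to the CD3 genes, a scale that adds 1.47 to every gene alike, Cdc23 and Cdc26 stood at 0.63 and 0.85. Both lay below the 1.30 of the median gene on that scale. Ube2s, the E2 enzyme that extends ubiquitin chains after Ube2c, rose by 0.38 beside 2.22 for Ube2c. The core subunits act throughout G1 as well as in mitosis.

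Of 21 further centromere and kinetochore genes 12 rose (57.1%, beside 22.4% of all genes) and 8 fell (38.1%, beside 38.8%). Cenpf was at least 4.25-fold higher, and Nuf2, which pairs with the Ndc80 protein in 1 complex, rose by 1.65 where Ndc80 differed by 0.26. Zwilch of the checkpoint-recruiting RZZ complex rose by 1.63 and its partner Zw10 fell by 0.53. Cenpq fell by 0.97. Of 5 further checkpoint and passenger genes Trip13, an ATPase that remodels MAD2, rose by 1.87, and Mad2l1bp, its adaptor, fell by 0.81. Relative to the CD3 genes Zw10, Cenpq and Mad2l1bp stood at 0.93, 0.49 and 0.66, all below the 1.30 of the median gene on that scale.

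Genes of DNA replication, the step before mitosis, rose in 19 of 24 measured cases (79.2%, beside 22.4% of all genes) and fell in 1 (4.17%, beside 38.8%), with a median of 0.64. Among the 19 was Tyms, named after its values were seen, which lay in the background range in both groups. The members and the replication genes share samples, so these are values side by side. Of the replicative helicase genes Mcm2 to Mcm7, 5 rose, by 1.05 in Mcm3 and by 0.18 to 0.38 in the others, and Mcm6 did not pass (0.11, limma adjusted p = 0.111). The rises of Mcm2 and Mcm4 did not pass with median centring (adjusted p = 0.354 and 0.686). Pcna, the sliding clamp, fell by 0.23 (limma adjusted p = 0.00602), and was -0.01 with cyclic loess (adjusted p = 0.923). Relative to the CD3 genes it stood at 1.24, near the 1.30 of the median gene on that scale.

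Smc4, Cdc25b and Pttg1 kept their sign on the deposited scale, with median centring and with cyclic loess, while Bub3 turned with cyclic loess and Cenpa with median centring. The CD3 scale adds 1.47 to every gene alike, so signs on it follow that shift. The median difference of all genes was -0.17 on the deposited scale, -0.33 with median centring, 0.00 with cyclic loess and 1.30 relative to the CD3 genes, and the median of the members on the same scales was 1.47, 1.32, 1.65 and 2.94. The number of members called higher was 39, 38, 40 and 43, beside 22.4%, 17.8%, 29.9% and 97.7% of all genes. The number called lower was 3, 4, 2 and 0, beside 38.8% of all genes on the deposited scale. Set against the median of all genes on each scale, Bub3 and Pttg1 lay close to it, Cdc25b and Smc4 lay below it, and Cenpa and the other 39 lay above it.

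**Figure D4:**
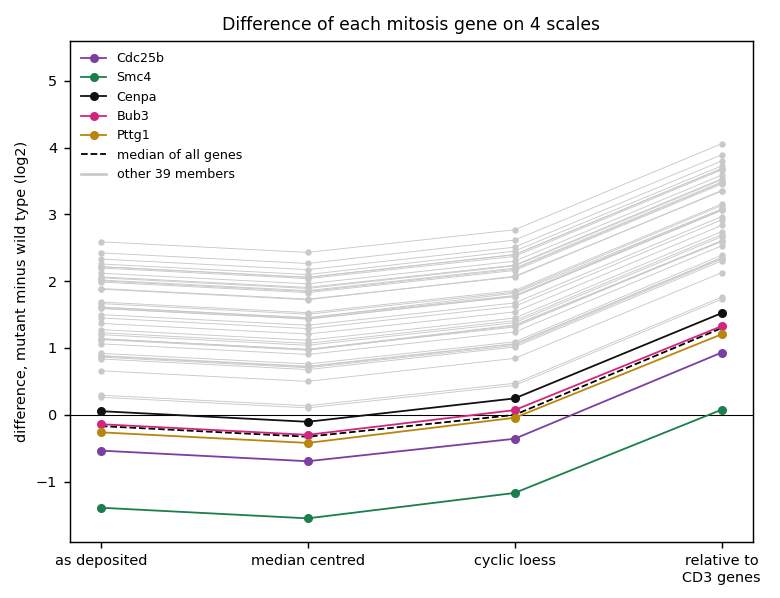
Difference (mutant minus wild type, log2) of each of the 44 mitosis genes on 4 scales, 1 line per gene, with the 5 members that were not called higher on the deposited scale in colour and the median of all genes as a dashed line. The 39 other members in grey stay above 0 on all 4 scales, and Smc4 moves from -1.39 on the deposited scale to 0.08 relative to the CD3 genes.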

How the data were processed

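Biotin-labelled total RNA was run on 6 Affymetrix Mouse430a arrays, per the labels' protocols. The series' design text names robust multiarray averaging (RMA) and MAYDAY 2.12, and the values the authors deposited lie between about 2 and 15, as log2 RMA signals do, with 1 value for each probe set and sample. RMA gives all arrays nearly 1 distribution, so a change in total RNA per cell cannot be seen. Of 22690 probe sets 64 controls were left out, and 20380 had 1 gene symbol in the platform annotation, which gave 12393 genes. Samples were grouped by title. Each gene was fitted with limma 3.58.1 under R 4.3.3 (lmFit then eBayes, two-sided), and p-values were adjusted by Benjamini-Hochberg over the 12393 genes. Tests were checked on simulated data. Figures and promoter searches used Python 3.11.15, pandas 2.3.3 and matplotlib 3.10.9. The number of arrays, 3 per group, limits the precision.

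Members, gene lists, scales and the genes printed by sample were chosen with earlier results of these data known. Every member could be named, with values in every sample for Mki67, Top2a, Cdk1, Aurka, Birc5, Foxm1, the 2 largest rises, the smallest difference and each fall. Kif22, Cenpe, Ncaph, Ncapd2 and Ncaph2 were added after their values were seen, as was the promoter window. Of other mitosis genes, up to 3 rises and 3 falls per sublist could be named. The alternatives varied the test (the methods' t-test, a replicate block, a robust trended prior, array weights), the scale (medians centred, cyclic loess, a second quantile normalization, CD3 genes as reference), the probe sets (dim ones dropped, _s_at and _x_at dropped, a gene's sets averaged), the fold threshold (1.5) and the samples (each left out once).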

Additional observations from a re-analysis of the deposited data

How the results depend on the processing

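The number of members called higher was 37 to 43 under all alternatives and 39 in each of the 6 fits without 1 sample. Among all genes 17.8% (median centring) to 30.6% (dim probe sets dropped) were called higher. The exception was 97.7% relative to the CD3 genes, the scale that gave the 43. The number at least 2-fold higher was 27 to 36, with 30 to 32 without 1 sample, 37 at a 1.5-fold threshold and 42 relative to the CD3 genes. In the main fit 9.04% of all genes were at least 2-fold higher. That share was not counted under the alternatives. Members called lower numbered 3 in each fit without 1 sample, 2 to 4 under the other alternatives and 0 relative to the CD3 genes, where 84 of the other mitosis genes were called higher. The median of the members moved by more than the spread between samples with median centring (1.32), cyclic loess (1.65), without _s_at and _x_at probe sets (1.28), with a gene's probe sets averaged (1.13) and relative to the CD3 genes (2.94), and it was 1.46 to 1.5 without 1 sample. Single members turned direction in 7 cases. Relative to the CD3 genes, a shift of 1.47 for every gene alike, these were Bub3 (1.33), Cdc25b (0.93), Pttg1 (1.2) and Smc4 (0.075), with cyclic loess Bub3 (0.070), with median centring Cenpa (-0.11), and without _s_at and _x_at probe sets Kif2c (-0.15), where another probe set represents the gene. Of 746 values of members under alternatives 727 kept direction and side of the threshold, 5 lost a call and 7 gained one. The replicate number as a block gave 39 members higher and 3 lower. Deviations of same-numbered samples correlated at 0.0885, 0.0646 and -0.201 over all genes, and 1 of 3 wild type samples correlated best with its own number. These values show no pairing by number, but 3 samples per group are too few to exclude it. Levels inside the background range limit the folds of 6 members to lower bounds.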
